A study of Danio rerio with 8 samples.

Results

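The UDP-glucuronosyltransferases (UGT), glutathione S-transferases (GST) and sulfotransferases (SULT) are the conjugation enzymes of the liver. UGTs attach glucuronic acid from UDP-glucuronate, GSTs attach the tripeptide glutathione to reactive electrophiles, and SULTs attach sulfate from the donor PAPS. The products are more soluble than the starting compounds and leave the hepatocyte through export pumps into bile or blood. Bilirubin, steroid hormones, bile salts, thyroid hormone and many food and environmental chemicals are handled by these enzymes.

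Members were the genes whose symbol opens with ugt or sult and a digit, or with gst and one of the class letters a, k, m, o, p, r, t or z. Of 32520 genes in the count files, 66 matched this pattern, and 59 of them had at least 10 counts over all fish: 28 UGT, 15 GST and 16 SULT genes. Among these 59 are 6 that the gene name table lists under a human-style symbol in capitals (UGT1A1, UGT8, GSTZ1 and 3 genes all named GSTM3), and these were counted as members regardless of letter case. The 7 matching genes left out had between 0 and 9 counts in all: ugt2b3, ugt5g2, gstk2, gstp1.1, sult1st7, sult5a1 and SULT4A1.

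Gene expression was measured in whole livers of female zebrafish aged 36 wk, 4 fed the Whole Egg diet and 4 fed the Control diet, with 1 library per fish. Feeding of the diets began at day 21. In the Whole Egg diet, about 50% of the protein came from whole egg. It replaced part of the casein, fish protein hydrolysate and soy protein of the Control diet, and the rest of these sources remained. The Whole Egg diet was thus a partial substitution. It was also formulated with more lipid and less starch, so protein source and lipid content cannot be told apart. The strain and the tank of each fish are not given in the sources used here, and the p-values measure the spread between these fish. Fish are named by diet and by the number in the labels (Whole Egg-1 to Whole Egg-4 and Control-1 to Control-4).

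The gene counts of a fish summed to 16916307 at the least and 35871236 at the most, and 10148 (Control-4) to 21973 (Control-3) of them fell on the 59 members, or 0.0475% (Control-4) to 0.0916% (Control-2) of a fish's gene counts. Expression is given as CPM, the count relative to a common library size after scaling with edgeR's TMM factors, which make the bulk of genes comparable between fish and were lowest in Control-4 (0.682) and highest in Whole Egg-2 (1.72). Liver markers were abundant in every fish. Their summed level over the 11 listed genes found was 8835 to 29734 CPM in Whole Egg fish and 21267 to 33409 CPM in Control fish, with Whole Egg-2 the lowest of all. All 14 ovary markers were highest in Whole Egg-2, whose ovary sum was 671 CPM against 5.16 to 76.4 CPM in the other Whole Egg fish and 5.22 to 44.5 CPM in Control fish. The sum of 9 exocrine pancreas markers was 136 to 1245 CPM in Whole Egg fish and 301 to 1667 CPM in Control fish, and that of 4 blood markers was 30.7 to 72.9 CPM in Whole Egg fish and 30.04 to 59.6 CPM in Control fish. The sum of 7 intestine markers was 71.3 to 232 CPM in Whole Egg fish and 131 to 372 CPM in Control fish. In every fish most of that sum was apoa4b.1 alone, at 68.1 to 232 CPM in Whole Egg fish and 126 to 264 CPM in Control fish. The sum was highest in Control-2. There the ileal bile acid binding protein gene FABP6 stood at 40.6 CPM, and in no other fish above 0.0603 CPM, while the listed marker pdx1 was at 0 in Control-2. No marker on the 5 lists was at 0 in all fish. In whole tissue, fewer cells of a type and less RNA per cell cannot be told apart.

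The abundance of each family was compared between the diets first. The summed CPM of the UGT members was 369, 172, 226 and 227 in Whole Egg-1 to Whole Egg-4 and 277, 361, 292 and 250 in Control-1 to Control-4. Of the Whole Egg fish, 3 lay below every Control fish, while Whole Egg-1 was the highest of the 8. The means were 248 ± 84.3 on Whole Egg and 295 ± 47.2 on Control (SD, n = 4 each), a log2 ratio of −0.25. The GST members summed to 353, 183, 324 and 370 CPM in Whole Egg-1 to Whole Egg-4 and to 287, 362, 333 and 361 CPM in Control-1 to Control-4. Here Whole Egg-2 was below and Whole Egg-4 above every Control fish. The means were 307 ± 85.2 on Whole Egg and 336 ± 35.5 on Control (SD, n = 4 each), a log2 ratio of −0.13. The SULT members summed to 84.9, 40.2, 56.2 and 79.6 CPM in Whole Egg-1 to Whole Egg-4 and to 76.1, 68.5, 71.3 and 86.6 CPM in Control-1 to Control-4. Whole Egg-2 and Whole Egg-3 were below every Control fish, and the means were 65.2 ± 20.8 on Whole Egg and 75.6 ± 7.97 on Control (SD, n = 4 each), a log2 ratio of −0.21. Within a diet the SD of the log2 sums was 0.36 for UGT, 0.35 for GST and 0.37 for SULT. Each of the 3 differences was smaller than this SD of single fish. Such an SD is wider than the error of a difference between means of 4 fish, and the sums were not tested.

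**Figure D1:**
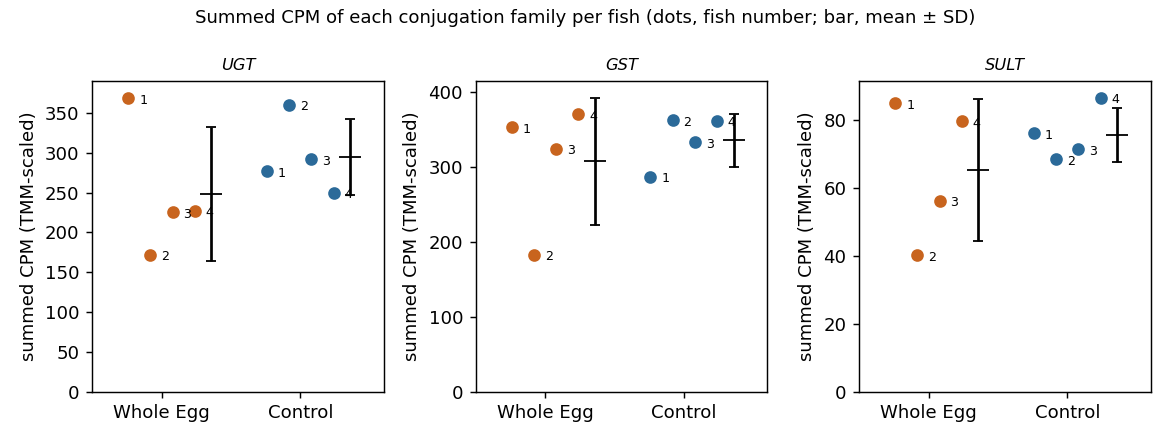
Summed CPM of the UGT, GST and SULT members in each fish (vertical axes, TMM-scaled CPM from 0), with Whole Egg fish left of Control fish, a dot per fish with its number, and a bar for mean ± SD of 4 fish. Whole Egg-2 is the lowest fish in all 3 families, at 172, 183 and 40.2 CPM.

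Whole Egg-2 was the lowest fish in all 3 families, as it was in the sum of the liver markers. Per 1000 counts of the liver marker list, a scale chosen after the data were seen, Whole Egg-2 was instead the highest fish in all 3 families. On that scale the UGT members stood at 13.7, 19.5, 10.5 and 7.64 in Whole Egg-1 to Whole Egg-4 and between 9.77 and 13.7 in Control fish. The GST members stood at 13.1, 20.7, 15.1 and 12.4 in Whole Egg-1 to Whole Egg-4, while Control fish stood between 10.8 and 15.6. The SULT members stood at 3.16, 4.55, 2.62 and 2.68 in Whole Egg-1 to Whole Egg-4, while Control fish stood between 2.05 and 3.39. The part of the ovary RNA or of the scaling in the low CPM of Whole Egg-2 was not tested. The direction of the family ratios depended on the scale. Without TMM, on raw library totals, the log2 ratios were 0.085 for UGT, 0.23 for GST and 0.17 for SULT, and that scaling moved the median log2 fold change of all genes by 0.45. Without Whole Egg-2 the TMM-scaled ratios were −0.10 for UGT, 0.058 for GST and −0.038 for SULT, and without Whole Egg-1 they were −0.51 for UGT, −0.21 for GST and −0.37 for SULT.

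Single genes were then tested for a difference between diets by the quasi-likelihood method of edgeR, over all 13379 genes that passed its filter on low counts. This filter kept 49 members (28 UGT, 13 GST and 8 SULT). At an adjusted p under 0.1, 0 of the 49 members differed between the diets, where 0% of all genes tested did, and the smallest adjusted p of any gene was 0.813. DESeq2 also called 0 members. At an unadjusted p under 0.05 with edgeR, 4 members were lower on Whole Egg, ugt2a7, gstt2, sult1st6 and ugt2a6, and 0 were higher. Among all genes tested, 1.39% were lower, 2.03% higher and 3.42% either at that threshold, so that 8.16% of the members stand beside 1.39% of all genes for the lower direction. All 4 failed the correction for the number of genes tested (adjusted p = 0.813 with edgeR for each). The count moved with the fish included. Without Whole Egg-1, 7 members were lower (2.34% of all genes) and 1 was higher (7.49% of all genes), and without Whole Egg-2, 3 were lower (1.24% of all genes) and 0 higher (1.38% of all genes). Without Control-2 and Whole Egg-2, the pair of fish that the study described as outliers of its PCA, 2 were lower (1.19% of all genes) and 0 higher (0.897% of all genes).

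Most members leaned to lower values on Whole Egg, by little. The log2 fold change was below 0 for 36 of the 49 members (73.5%), against 45.8% of all genes tested. By family these were 21 of 28 UGT, 9 of 13 GST and 6 of 8 SULT genes. The median log2 fold change was −0.16 over the 49 members and 0.043 over all genes tested. The medians of the families were −0.18 for UGT, −0.16 for GST and −0.23 for SULT, and the SE of a single member had a median of 0.37. On raw library totals 15 of the 49 members were below 0, when only 10.5% of all genes were, and the median of the members was 0.27 below that of all genes (0.21 below with TMM). Without Control-2 and Whole Egg-2, 28 of 49 were below 0 and the median of the members was −0.035, against 0.020 for all genes.

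**Figure D2:**
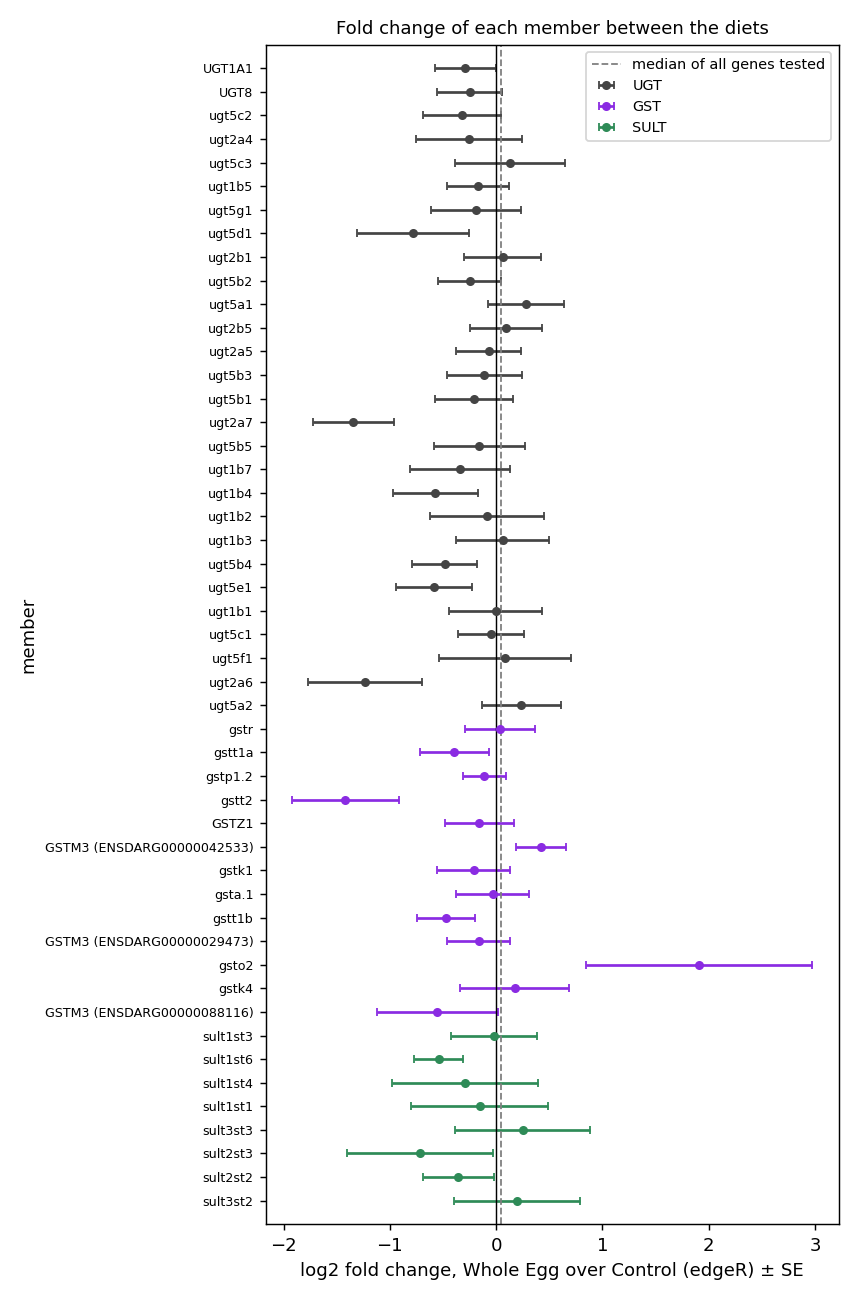
Log2 fold change of Whole Egg over Control (horizontal axis, edgeR, bars ± SE) for the 49 members tested, UGT, GST and SULT from the top and by mean CPM within a family. The dashed line is the median of all genes tested (0.043), and 36 of the 49 points lie below 0.

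Among the UGT members, reads were concentrated on few genes. The 4 with the most counts took 70.4% of all UGT counts, and UGT1A1 alone took 24.2% to 37.9% in a fish. Counts are not corrected for transcript length, for which no table was used here, so these are shares of reads and do not rank the transcripts. UGT1A1 (ENSDARG00000006220), whose mammalian counterpart conjugates bilirubin, stood at 105, 57.1, 84.6 and 69.3 CPM in Whole Egg-1 to Whole Egg-4 and at 67.0, 124, 111 and 84.8 CPM in Control-1 to Control-4. The diets overlapped widely (log2 fold change −0.29, SE 0.29, edgeR adjusted p = 0.845). UGT8 (ENSDARG00000037455) is a galactosyltransferase in mammals that makes galactosylceramide. It stood at 40.6, 16.9, 38.8 and 42.7 CPM in Whole Egg-1 to Whole Egg-4 and at 44.3, 40.7, 33.1 and 46.7 CPM in Control-1 to Control-4, so that only Whole Egg-2 was apart, and its CV over the 8 fish (24.8%) was the smallest of the UGT members with at least 5 CPM.

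A set of UGT genes was highest in a single Whole Egg fish. The gene ugt5c2 (ENSDARG00000006372), of a UGT5 family found in fish and not in mammals, stood at 61.3, 21.1, 23.1 and 26.6 CPM in Whole Egg-1 to Whole Egg-4 and at 46.4, 50.0, 36.9 and 31.6 CPM in Control-1 to Control-4. Whole Egg-1 was above all Control fish and the other 3 Whole Egg fish were below all of them (log2 fold change −0.32, SE 0.37, edgeR adjusted p = 0.860). The UGT2 gene ugt2a4 (ENSDARG00000051940) had the same order, with 57.9, 13.3, 17.4 and 19.3 CPM in Whole Egg-1 to Whole Egg-4 and 37.8, 48.4, 20.8 and 21.9 CPM in Control-1 to Control-4 (log2 fold change −0.26, SE 0.50, edgeR adjusted p = 0.905). The gene ugt5c3 also peaked in Whole Egg-1, at 29.0 CPM, and stood at 6.18 to 12.7 CPM in the other Whole Egg fish and 7.77 to 19.0 CPM in Control fish. The entries of ugt5c2 and ugt5c3 overlap in RefSeq's GRCz12tu annotation, so their counts may not be independent. The study's table of genes lists ugt2a4 as ugt2a2 and ugt2a7 as ugt2b6, so the place of these 2 genes within UGT2 is uncertain.

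The call on ugt5c2 turned on the choice of fish. The study repeated its comparison without Control-4 and Whole Egg-1, a pair that overlapped in its PCA, so that the choice of fish rests on the expression values themselves, and it dropped genes under 30 counts. In those 6 fish, with at least 30 counts in every fish, DESeq2 gave ugt5c2 a log2 fold change of −0.87 (SE 0.23, adjusted p = 0.0354). A call in these 6 fish also needed a log2 fold change beyond 0.8 in either direction. Only ugt5c2 of 28 members tested was called lower on Whole Egg (3.57%), where 0.378% of all 8195 genes were. In the same 6 fish and with the same limits, edgeR called 0 members (ugt5c2 log2 fold change −0.87, SE 0.24, edgeR adjusted p = 0.796), and 4 members were lower at an unadjusted p under 0.05, where 2.43% of all genes were lower and 3.54% higher. Whole Egg-1 was the Whole Egg fish with the highest ugt5c2 level, and leaving it out alone moved the edgeR log2 fold change to −0.81 (SE 0.25, adjusted p = 0.458).

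The UGT2 genes ugt2a7 (ENSDARG00000091624) and ugt2a6 (ENSDARG00000039501) had the lowest log2 fold changes of the UGT members, both at low levels. The CPM of ugt2a7 were 1.13, 0.761, 0.734 and 1.63 in Whole Egg-1 to Whole Egg-4 and 3.90, 1.68, 2.72 and 2.41 in Control-1 to Control-4. It was the only member whose diets did not overlap, and the margin was narrow, between Whole Egg-4 (27 counts) and Control-2 (37 counts). Over all genes tested, 1.13% had every Whole Egg fish below every Control fish, beside 1 of 49 members (2.04%). Its log2 fold change was −1.34 (SE 0.38, unadjusted p = 0.00623, edgeR adjusted p = 0.813) and it ranged from −1.62 to −1.11 when each fish was left out in turn. The CPM of ugt2a6 were 1.03, 0.556, 0.285 and 0.362 in Whole Egg-1 to Whole Egg-4 and 1.70, 2.08, 0.918 and 0.550 in Control-1 to Control-4, from 6 to 46 counts per fish. The diets overlapped, and the log2 fold change was −1.23 (SE 0.53, unadjusted p = 0.0454, edgeR adjusted p = 0.813).

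**Figure D3:**
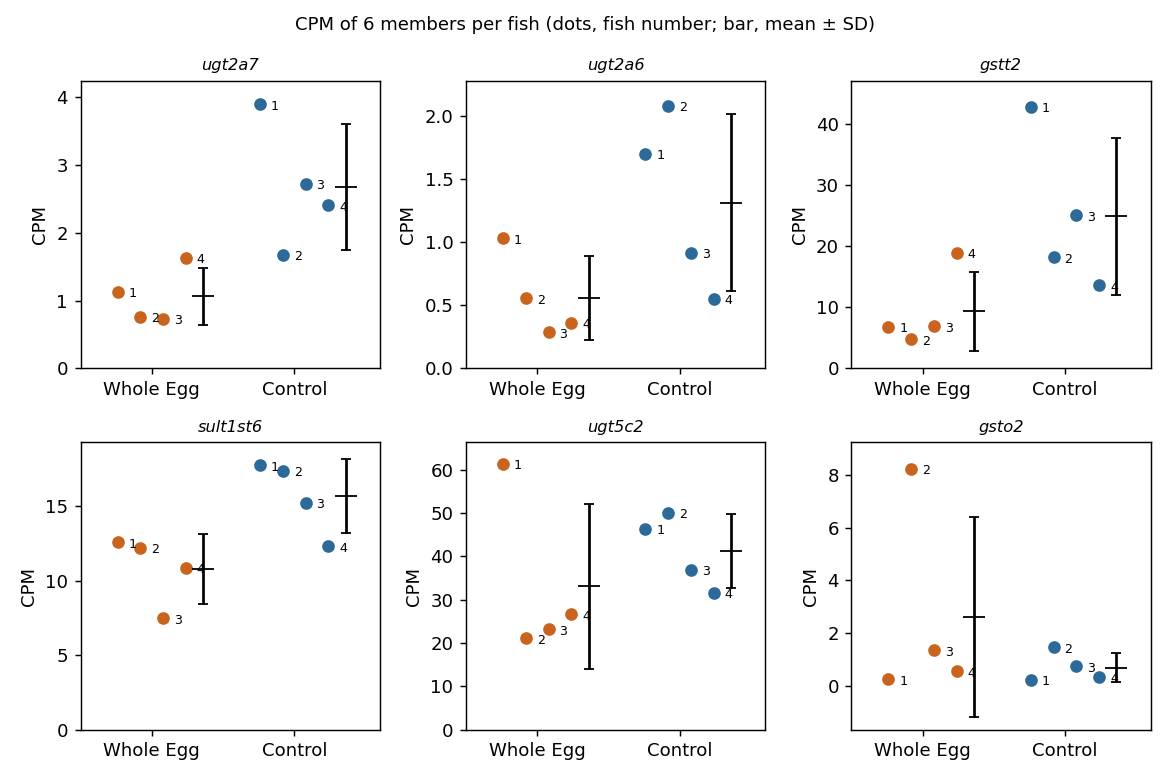
CPM of 6 members in each fish (vertical axes, TMM-scaled CPM), with Whole Egg fish left of Control fish, a dot per fish with its number and a bar for mean ± SD of 4 fish. The 4 values of ugt2a7 on Whole Egg lie below the 4 on Control, Whole Egg-1 is alone at 61.3 CPM for ugt5c2, and Whole Egg-2 is alone at 8.25 CPM for gsto2.

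For the other UGT genes ugt5d1, ugt5e1 and ugt5b4, 3 of 4 Whole Egg fish were below every Control fish, without passing the test. The share of all genes with this order was not counted. The gene ugt5b4 stood at 1.62, 0.907, 1.14 and 1.08 CPM in Whole Egg-1 to Whole Egg-4 and at 1.43, 2.13, 1.62 and 1.44 CPM in Control-1 to Control-4 (log2 fold change −0.48, SE 0.31, edgeR adjusted p = 0.813). The gene ugt5d1 had the largest CV of the UGT members with at least 5 CPM (63.6%), with 9.15, 4.74, 3.06 and 1.75 CPM in Whole Egg-1 to Whole Egg-4 and 7.42, 14.6, 5.07 and 5.16 CPM in Control-1 to Control-4. The log2 fold change of ugt5d1 was −0.78 (SE 0.53, edgeR adjusted p = 0.813). The gene ugt5e1 stood at 0.885, 0.732, 0.856 and 1.75 CPM in Whole Egg-1 to Whole Egg-4 and at 1.81, 1.68, 1.58 and 1.17 CPM in Control-1 to Control-4, with Whole Egg-4 apart from the other Whole Egg fish (log2 fold change −0.58, SE 0.36, edgeR adjusted p = 0.813). Of the members, 54 have an entry of the same symbol in RefSeq's GRCz12tu annotation, and 20 of these overlap another UGT or GST entry there. Among them are UGT1A1, ugt1b1 to ugt1b5, ugt1b7, ugt2a4, ugt5b1 to ugt5b4 and ugt5c1 to ugt5c3. STAR leaves out a read that falls on more than 1 gene, which was 52252 (Whole Egg-4) to 104504 (Control-3) reads of a fish. Between 33.9% and 37.9% of the reads of a fish had more than 1 place in the genome and were also left out. Both values are over the whole genome, and the share at these genes was not counted. Levels of these clustered genes are therefore uncertain, and those of near-identical neighbours may be too low. In RefSeq, UGT1A1 shares an end with entries such as ugt1a6 and ugt1a2, and ugt2a4 with ugt2a1, ugt2a2 and ugt2a3. None of these entries was among the genes that matched the pattern. The counts of UGT1A1 and ugt2a4 may thus pool reads of several entries, which was not tested.

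Among the GST members, gstr carried the most reads, 40.7% to 58.8% of the GST counts of a fish. It encodes the rho class, which is found in fish and not in mammals. The CPM of gstr (ENSDARG00000042620) were 207, 74.5, 160.1 and 198 in Whole Egg-1 to Whole Egg-4 and 128, 157, 160.0 and 179 in Control-1 to Control-4. Whole Egg-2 was below and Whole Egg-1 and Whole Egg-4 were above every Control fish (log2 fold change 0.038, SE 0.33, edgeR adjusted p = 0.980). The pi class gene gstp1.2 (ENSDARG00000104068), a target of the oxidant-responsive factor Nrf2 in zebrafish larvae in the case of gstp1, was the steadiest GST member with at least 5 CPM, with a CV of 12.1%. It stood at 41.1, 34.6, 40.2 and 41.2 CPM in Whole Egg-1 to Whole Egg-4 and at 34.3, 49.8, 43.6 and 41.9 CPM in Control-1 to Control-4 (log2 fold change −0.11, SE 0.20, edgeR adjusted p = 0.903).

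The theta class genes, whose products act on small electrophiles such as halogenated alkanes, were lower on Whole Egg in fitted value at all 3 loci. Of all 13 GST members tested, 9 had a log2 fold change below 0, beside 45.8% of all genes tested. The CPM of gstt2 (ENSDARG00000095464) were 6.79, 4.77, 6.89 and 18.9 in Whole Egg-1 to Whole Egg-4 and 42.8, 18.2, 25.0 and 13.5 in Control-1 to Control-4. Whole Egg-1, Whole Egg-2 and Whole Egg-3 were below every Control fish and Whole Egg-4 was above Control-2 and Control-4. The mean was 9.34 ± 6.46 CPM on Whole Egg and 24.9 ± 12.8 CPM on Control (SD, n = 4 each), a log2 fold change of −1.42 (SE 0.50, unadjusted p = 0.0192, edgeR adjusted p = 0.813). Leaving out each fish in turn gave −2.03 (without Whole Egg-4) to −1.03 (without Control-1), and gstt2 had the largest CV of the GST members with at least 5 CPM (73.3%). The gene gstt1a (ENSDARG00000042428) stood at 38.3, 25.0, 61.2 and 54.4 CPM in Whole Egg-1 to Whole Egg-4 and at 42.4, 73.4, 51.2 and 68.3 CPM in Control-1 to Control-4 (log2 fold change −0.40, SE 0.32, edgeR adjusted p = 0.828). For gstt1b (ENSDARG00000017388), CPM were 3.59, 2.43, 3.10 and 2.83 in Whole Egg-1 to Whole Egg-4 and 2.75, 5.57, 4.18 and 4.06 in Control-1 to Control-4. Only Control-1 lay among the Whole Egg fish, and the log2 fold change was −0.47 (SE 0.27, adjusted p by edgeR = 0.813).

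The log2 fold change was above 0 for 4 of 13 GST members. A gene listed as GSTM3 (ENSDARG00000042533), of the mu class, stood at 15.9, 12.4, 13.3 and 9.94 CPM in Whole Egg-1 to Whole Egg-4 and at 7.20, 11.8, 8.74 and 10.7 CPM in Control-1 to Control-4, and 3 of 4 Whole Egg fish were above every Control fish (log2 fold change 0.42, SE 0.23, edgeR adjusted p = 0.813). The omega class gene gsto2 (ENSDARG00000033285), whose mammalian counterpart reduces dehydroascorbate, had the largest CV of all tested members (165%). It stood at 0.246, 8.25, 1.35 and 0.542 CPM in Whole Egg-1 to Whole Egg-4 and at 0.220, 1.45, 0.728 and 0.344 CPM in Control-1 to Control-4. With all fish, gsto2 had a log2 fold change of 1.91 (SE 1.07, adjusted p by edgeR = 0.813), against 0.054 (SE 0.75, edgeR adjusted p = 0.999) without Whole Egg-2, which held 282 of its 393 counts. Whole Egg-2 was also the fish with the highest ovary marker sum, and the part of ovary RNA in gsto2 was not tested. The remaining GST genes, GSTZ1 (which encodes an isomerase of tyrosine breakdown), gstk1, gstk4, gsta.1 and the other 2 GSTM3 genes, had log2 fold changes between −0.55 and 0.18.

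**Figure D4:**
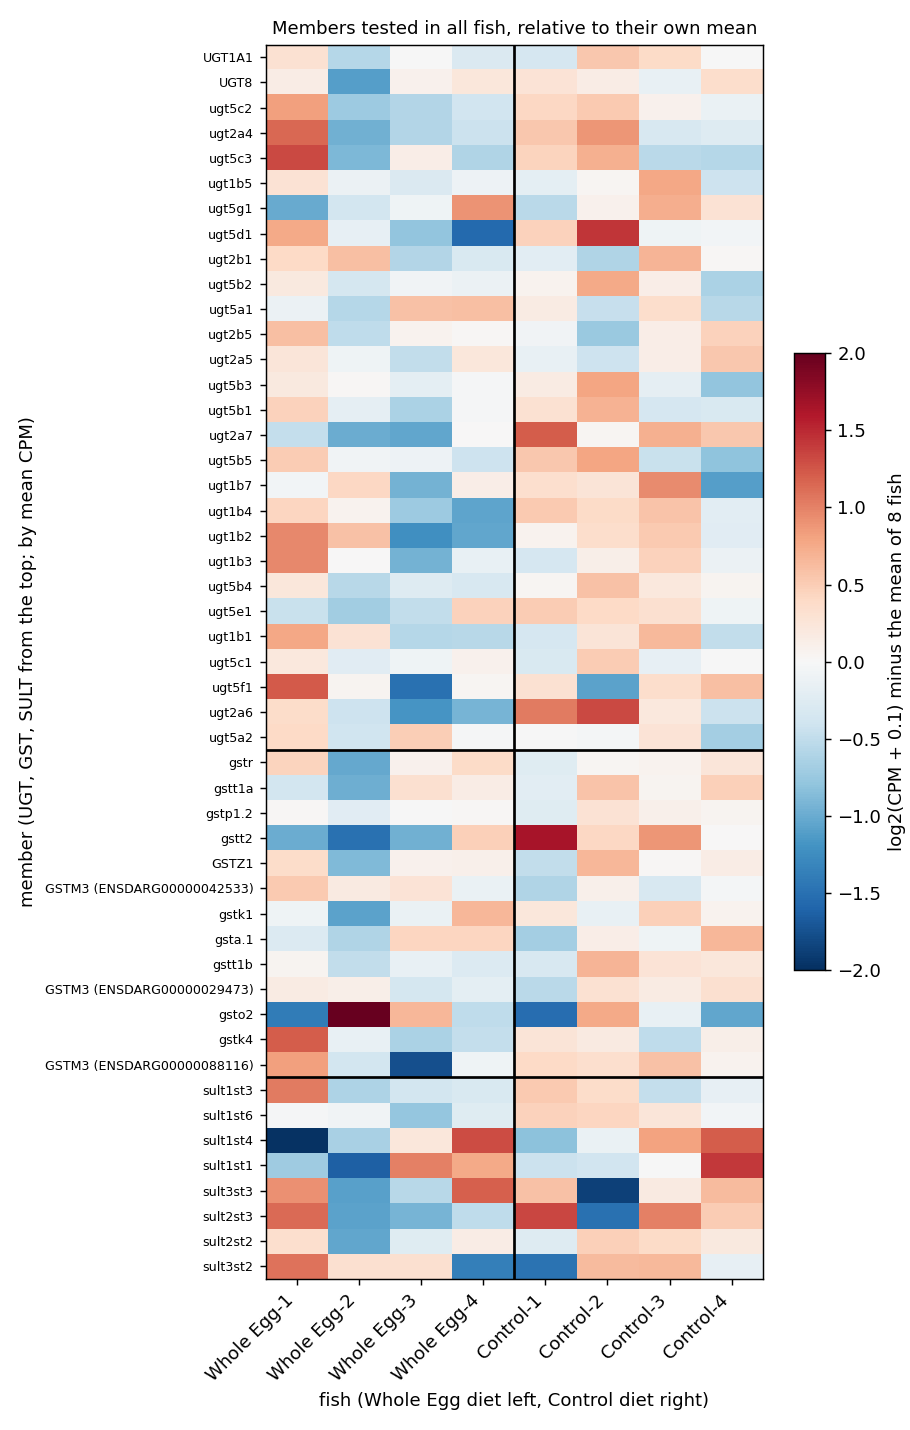
Level of the 49 tested members in each fish, as log2(CPM + 0.1) minus the mean of the 8 fish (colour, red above and blue below that mean, limited to 2 in each direction), with Whole Egg fish left of the vertical line. Whole Egg-1 and Control-2 each hold the highest value of 14 members, and Whole Egg-2 holds the lowest value of 17.

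Among the SULT members, the phenol-sulfating SULT1 genes took most reads. The 4 genes sult1st3, sult1st6, sult1st4 and sult1st1 held 71.9% of all SULT counts. The gene sult1st6 (ENSDARG00000006811) stood at 12.6, 12.2, 7.46 and 10.8 CPM in Whole Egg-1 to Whole Egg-4 and at 17.7, 17.4, 15.2 and 12.3 CPM in Control-1 to Control-4. Only Control-4 lay within the range of the Whole Egg fish. The mean was 10.8 ± 2.33 CPM on Whole Egg and 15.7 ± 2.49 CPM on Control (SD, n = 4 each), a log2 fold change of −0.54 (SE 0.23, unadjusted p = 0.0418, edgeR adjusted p = 0.813), and it was −0.097 (SE 0.36) on raw library totals. It was also the SULT gene with at least 5 CPM that varied least between fish (CV 26.0%).

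The other SULT1 genes had larger CVs than sult1st6. The CPM of sult1st3 (ENSDARG00000018361) were 37.4, 11.7, 13.99 and 14.5 in Whole Egg-1 to Whole Egg-4 and 26.1, 23.4, 12.9 and 16.2 in Control-1 to Control-4, with Whole Egg-1 highest as for ugt5c2 and ugt2a4 (log2 fold change −0.019, SE 0.41, edgeR adjusted p = 0.991). Those of sult1st4 (ENSDARG00000003181) were 1.82, 4.71, 8.77 and 18.6 in Whole Egg-1 to Whole Egg-4 and 4.17, 6.80, 13.1 and 17.4 in Control-1 to Control-4. Whole Egg-1 was the lowest fish and Whole Egg-4 the highest for sult1st4, a ratio of 10.2 within 1 diet. The gene sult1st1 (ENSDARG00000028275) stood at 4.13, 2.14, 13.8 and 11.7 CPM in Whole Egg-1 to Whole Egg-4 and at 5.05, 5.21, 6.84 and 18.4 CPM in Control-1 to Control-4, and it had the largest CV of the SULT members with at least 5 CPM (66.8%). The log2 fold changes were −0.30 for sult1st4 (SE 0.69) and −0.16 for sult1st1 (SE 0.64), each well under its SE. Over the SULT members tested the median CV was 56.4%, against 37.3% for UGT, 31.2% for GST and 34.0% for all genes tested.

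The 10 members that did not pass the filter were gsto1, gsta.2 and 8 SULT genes, none above 2.45 CPM in any fish. The genes sult6b1 and sult1st2, named after their values were seen, were highest in Control-2. For sult6b1, CPM were 0.197, 0.234, 0.245 and 0.241 in Whole Egg-1 to Whole Egg-4 and 0.165, 2.45, 0.538 and 0.619 in Control-1 to Control-4, and Control-2 held 54 of its 105 counts. For sult1st2 they were 0.344, 0.176, 0.0815 and 0.0603 in Whole Egg-1 to Whole Egg-4 and 0.275, 1.68, 0.0950 and 0.137 in Control-1 to Control-4, with 37 of 63 counts in Control-2. Control-2 was the fish with the highest intestine marker sum, and the part of intestine RNA in these values was not tested. The other 8 were at most at 0.481 CPM in any fish.

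Across the 49 tested members, the highest and lowest values gathered in few fish. Whole Egg-2 held the lowest value of 17 members (34.7%, against 26.0% of all genes tested) and Whole Egg-3 that of 11 (22.4%, against 8.47% of all genes). Whole Egg-1 and Control-2 each held the highest value of 14 members (28.6%), where 16.0% of all genes were highest in Whole Egg-1 and 7.97% in Control-2. The members share libraries and some share sequence, so these counts describe the fish and carry no test.

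Genes that supply the conjugation reactions were examined in the same fit. They came from lists that were matched to symbols in the files, and not every listed gene had a symbol there. For glutathione, 7 genes of its supply, recycling or breakdown were tested, and 3 were higher on Whole Egg at an unadjusted p under 0.05, beside 2.03% of all genes. These 3 are GSS and GCLM, which act in synthesis, and CHAC1, whose product degrades glutathione. The median log2 fold change of these 7 was 0.33, against 0.043 for all genes tested. GSS, glutathione synthetase, stood at 2.16, 2.31, 3.02 and 1.63 CPM in Whole Egg-1 to Whole Egg-4 and at 1.48, 1.09, 1.01 and 1.24 CPM in Control-1 to Control-4. The diets did not overlap for GSS, and 1.01% of all genes tested had every Whole Egg fish above every Control fish (log2 fold change 0.92, SE 0.30, unadjusted p = 0.0117, edgeR adjusted p = 0.813).

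CHAC1, which encodes an enzyme that degrades glutathione and is induced by amino acid and endoplasmic reticulum stress in mammals, stood at 70.2, 24.9, 55.7 and 27.5 CPM in Whole Egg-1 to Whole Egg-4 and at 32.9, 14.2, 26.1 and 10.5 CPM in Control-1 to Control-4 (log2 fold change 1.09, SE 0.46, unadjusted p = 0.0405, edgeR adjusted p = 0.813). GCLM, the modifier subunit of the enzyme that limits glutathione synthesis, stood at 3.10, 5.18, 3.14 and 2.77 CPM in Whole Egg-1 to Whole Egg-4 and at 2.42, 2.86, 1.74 and 1.17 CPM in Control-1 to Control-4 (log2 fold change 0.79, SE 0.34, unadjusted p = 0.0459, edgeR adjusted p = 0.813). Its catalytic partner GCLC stood at 9.93, 10.2, 8.36 and 4.88 CPM in Whole Egg-1 to Whole Egg-4 and at 7.20, 7.48, 6.62 and 5.36 CPM in Control-1 to Control-4, with the Whole Egg fish on both sides of the Control fish (log2 fold change 0.32, SE 0.26, edgeR adjusted p = 0.828). None of these genes passed the adjusted threshold.

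**Figure D5:**
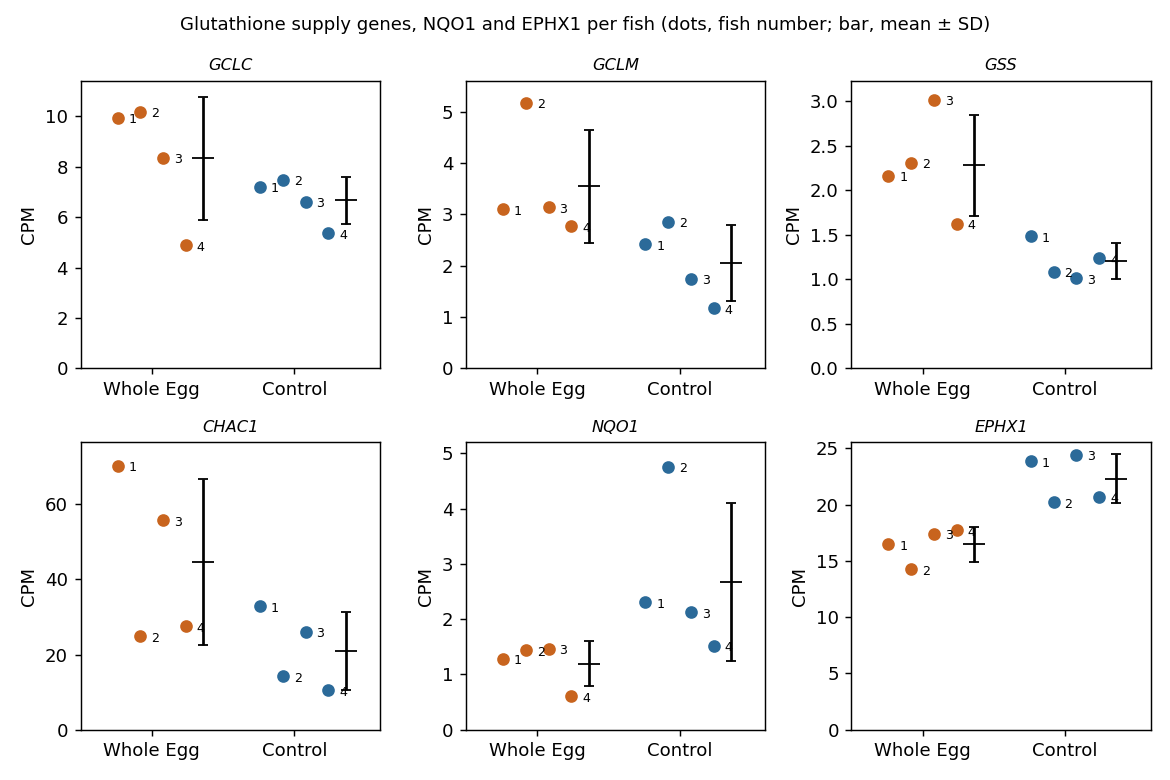
CPM of 4 glutathione genes (GCLC, GCLM, GSS and CHAC1) and of NQO1 and EPHX1 in each fish (vertical axes, TMM-scaled CPM from 0), with Whole Egg fish left of Control fish, a dot per fish with its number and a bar for mean ± SD of 4 fish. Apart from GCLC, the genes were plotted for an unadjusted p under 0.05. The Whole Egg fish all lie above the Control fish for GSS (1.01% of all genes tested) and all below them for NQO1 and EPHX1 (1.13%), each with an edgeR adjusted p of 0.813. With the TMM factors undone, the diets overlap for NQO1 and EPHX1.

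For glucuronidation, UGDH, which makes UDP-glucuronate, was the only gene of its list tested, at 8.75, 8.61, 6.24 and 4.52 CPM in Whole Egg-1 to Whole Egg-4 and 6.15, 9.52, 6.27 and 5.16 CPM in Control-1 to Control-4 (log2 fold change 0.054, SE 0.29, edgeR adjusted p = 0.970). For sulfation, 0 of 5 genes of PAPS supply had an unadjusted p under 0.05. PAPSS1, a PAPS synthase, stood at 1.62, 2.90, 0.652 and 0.422 CPM in Whole Egg-1 to Whole Egg-4 and at 0.769, 1.13, 0.602 and 0.206 CPM in Control-1 to Control-4 (log2 fold change 1.04, SE 0.66, edgeR adjusted p = 0.813).

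Of 5 other detoxication genes tested, 2 were lower on Whole Egg at an unadjusted p under 0.05, beside 1.39% of all genes. EPHX1, microsomal epoxide hydrolase, stood at 16.5, 14.3, 17.4 and 17.7 CPM in Whole Egg-1 to Whole Egg-4 and at 23.8, 20.2, 24.4 and 20.7 CPM in Control-1 to Control-4 (log2 fold change −0.44, SE 0.18, unadjusted p = 0.0378, edgeR adjusted p = 0.813). NQO1, a quinone reductase and an Nrf2 target in mammals, stood at 1.28, 1.43, 1.47 and 0.603 CPM in Whole Egg-1 to Whole Egg-4 and at 2.31, 4.76, 2.12 and 1.51 CPM in Control-1 to Control-4 (log2 fold change −1.15, SE 0.43, unadjusted p = 0.0251, edgeR adjusted p = 0.813). On TMM-scaled CPM, all Whole Egg fish were below all Control fish for both genes, as they were for 1.13% of all genes tested. This order rests on the scaling. With the TMM factors undone (1.72 in Whole Egg-2 and 0.682 in Control-4), the diets overlap for both genes.

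No gene of the remaining lists had an unadjusted p under 0.05. These were 9 regulators, such as the xenobiotic receptor NR1I2 and the aryl hydrocarbon receptor ahr2, 4 further genes listed with the GSTs (MGST2, mgst3b, GSTCD and the lipocalin-type prostaglandin synthase ptgdsb.1), 3 enzymes that remove conjugates and 6 export pumps. Log2 fold changes were below 0 for 9 of 9 regulators, 4 of 4 genes listed with the GSTs, 3 of 3 deconjugating enzymes and 5 of 6 pumps, where 45.8% of all genes were. The pump gene abcc2, whose product exports glucuronide and glutathione conjugates into bile, stood at 134, 82.6, 145 and 131 CPM in Whole Egg-1 to Whole Egg-4 and at 171, 145, 150 and 187 CPM in Control-1 to Control-4. On TMM-scaled CPM, Whole Egg-3 overlapped with Control-2 for abcc2, and the log2 fold change was −0.41 (SE 0.25, adjusted p by edgeR = 0.813). The overlap of the diets is wider with the TMM factors undone.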

How the data were processed

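Whole livers of 8 female zebrafish, 4 per diet, were sequenced by the authors after depletion of ribosomal RNA, with strand-specific libraries and 1 library per fish. The deposited values are raw counts of uniquely mapped reads on 32520 Ensembl genes. Per the labels, the authors used FastQC 0.11.8, Trimmomatic 0.36, STAR 2.5.2b on GRCz11 and DESeq2 1.22.2. The column of the strand that held 97.7% to 98.1% of stranded counts was used.

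Counts were analysed with R 4.3.3, edgeR 4.0.16 (TMM, filterByExpr with a minimum count of 10, robust quasi-likelihood test, Benjamini-Hochberg adjustment over all genes tested, threshold 0.1) and DESeq2 1.42.0. The SE is the absolute log2 fold change divided by the root of F. CPM are TMM-scaled. The test was first run on simulated data. No pair of libraries agreed within counting noise.

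The members and lists were chosen with earlier results of these data known. Named members were the 4 with the most CPM in each family, the 8 with the smallest p, those whose diets do not overlap, those called under an alternative, and those with the largest and smallest CV at 5 CPM or more. Other members with values were named after these were seen. From the supply lists, genes at an unadjusted p under 0.05 and GCLC and UGDH were named, and PAPSS1 and abcc2 were added after their values were seen. The PAPS synthase papss2b matched no symbol and was not analysed here.

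Alternatives were DESeq2, other scalings, filters and strand columns, the fish number as a block, and leaving out fish. Raw library totals in edgeR, fits without robust dispersions, members with zebrafish-style symbols only and the scale per liver marker count were added after seeing the data. Symbols came from a gene name table that covered 29201 of the genes. RefSeq's GRCz12tu table served for names and neighbours only, and no coordinates or sequences are given because the assembly differs. Levels per transcript length were not analysed here.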

Additional observations from a re-analysis of the deposited data

Results flagged for a closer look

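Among the 19 named members and the 3 family sums, 44 groups of 4 fish were examined for a fish whose gap to its nearest neighbour took a share of the group's range above Dixon's critical value for 4 samples. For independent, normally distributed values, chance alone gives about 1 in 20 such groups. The members were partly named for their values in these same data and share libraries, so that rate cannot serve as a benchmark here. Whole Egg-1 stood apart on the high side for ugt5c2 (61.3 CPM, other Whole Egg fish 21.1 to 26.6), ugt2a4 (57.9 CPM, others 13.3 to 19.3) and sult1st3 (37.4 CPM, others 11.7 to 14.5). Whole Egg-2 stood apart on the low side for UGT8 (16.9 CPM, others 38.8 to 42.7) and gstp1.2 (34.6 CPM, others 40.2 to 41.2) and on the high side for gsto2 (8.25 CPM, others 0.246 to 1.35). Whole Egg-4 was apart on the high side for gstt2 (18.9 CPM, others 4.77 to 6.89) and ugt5e1 (1.75 CPM, others 0.732 to 0.885). Among Control fish, Control-4 was apart for sult1st1 (18.4 CPM, others 5.05 to 6.84).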

How the results depend on the processing

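With edgeR, 0 members and 0 genes were called under every scaling, filter, strand column and set of fish tried. With DESeq2, 1 member (ugt5c2) and 60 genes were called in 6 fish, leaving out Whole Egg-1 and Control-4. Those calls also needed a log2 fold change beyond 0.8 in either direction. The 4 members at an unadjusted p under 0.05 became 1 with at least 30 counts in every fish, a filter that removed ugt2a7 and ugt2a6 and left sult1st6 at −0.46 (SE 0.25), 3 on raw library totals (2 lower and 1 higher), 2 without Whole Egg-2 and Control-2, and 1 (without Whole Egg-3) to 8 (without Whole Egg-1) when each fish was left out. They were 2 without Control-1 and 2 without Control-2. The number of a fish is shared by fish of both diets. Deviations of same-numbered fish correlated across genes with r of 0.198, 0.352, 0.0787 and 0.451 for numbers 1 to 4. Whole Egg-1, Whole Egg-2 and Whole Egg-4 correlated most with the Control fish of their own number, and Whole Egg-3 with Control-4 (0.0962). The number was not taken as a pairing in the main fit, and whether it marks one was not tested. With the number as a block, edgeR called 0 members and 0 genes, with 6 members and 750 genes (457 without the block) at an unadjusted p under 0.05, and DESeq2 called 0 members and 16 genes.

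On raw library totals the family ratios were 0.085 for UGT, 0.23 for GST and 0.17 for SULT, and per 1000 liver marker counts 0.17 for UGT, 0.23 for GST and 0.12 for SULT. Leaving out each fish gave −0.51 to −0.10 for UGT, −0.23 to 0.058 for GST and −0.37 to −0.038 for SULT. Leaving out both Whole Egg-2 and Control-2 gave 0.0067 for UGT, 0.096 for GST and −0.082 for SULT, and leaving out both Whole Egg-1 and Control-4 gave −0.58 for UGT, −0.17 for GST and −0.30 for SULT. Under at least 1 alternative, the sign changed for 8 of the named members. Their log2 fold changes in the main fit lay between −0.30 (sult1st4) and 0.038 (gstr). On raw totals the members that changed sign were UGT1A1 (0.050), UGT8 (0.11), gstp1.2 (0.29), sult1st3 (0.29), sult1st4 (0.15) and sult1st1 (0.31). Without Whole Egg-2 and Control-2 they were ugt2a4 (0.23), gstp1.2 (0.033) and sult1st3 (0.26), and with at least 30 counts in every fish sult1st3 (0.024). In 6 fish, leaving out Whole Egg-1 and Control-4, sult1st4 was at 0.40 with both tools and sult1st1 at 0.69 with edgeR and 0.68 with DESeq2. There gstr was at −0.024 with edgeR and −0.029 with DESeq2, and it was at −0.023 with upper quartile factors, −0.050 with the replicate block in edgeR and −0.037 with the block in DESeq2. Leaving out each fish gave −0.96 to 0.027 for ugt2a4, −0.12 to 0.28 for gstr, −0.56 to 0.17 for sult1st3, −1.03 to 0.065 for sult1st4 and −0.56 to 0.47 for sult1st1. The causes were not tested. The weighting of family sums by coding length was not run, since no table of coding lengths was used. Members under about 2 CPM rest on low counts per fish.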

Other observations

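The count of the opposite strand was not used in any comparison. For gsta.1 it held 40.9% of the counts of both strands, for gsta.2 24.0%, for ugt5c1 11.9% and for ugt5e1 10.5%, and its share over all genes was 1.93% to 2.28% in a fish. In the count without regard to strand, ugt5e1 had 0 reads and ugt5a2 had 34.2% of its stranded count.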
